A study of Mus musculus with 6 samples.

Results

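Interferon-stimulated genes were examined in gastrocnemius, the large calf muscle, of mice with and without a muscle-specific knockout of Hnrnpu. The 46 genes were chosen by name as known targets of interferon, with earlier results of these data known. Their share of calls is therefore a description and not an independent test. All 46 were found by symbol among the 49315 genes of the count tables. Of these, 29 rose in the knockout libraries and none fell, where 18.2% of all tested genes were called higher and 18.9% lower. The group called mKO held 3 libraries labelled as a muscle-specific knockout of Hnrnpu, which encodes a nuclear RNA-binding protein. The WT group held 3 libraries. Both groups had a mixed C57BL/6 and 129 background and an age of 3 months, and RNA was total RNA from flash-frozen muscle. What drives the deletion, which exons it removes and which alleles the WT mice carry were not stated in the labels. Replicates are numbered but not tied to named mice, and p-values therefore cover only the variation among these 6 libraries, whose source was not stated; within groups it was larger than counting error (chi-square per degree of freedom of 20.9 to 57.7 between pairs).

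Interferons are secreted proteins, and those of type I are released by cells that detect foreign or misplaced nucleic acid. Type I interferons bind the receptor formed by IFNAR1 and IFNAR2, which activates the kinases JAK1 and TYK2. These activate STAT2, which joins IRF9 in a complex that binds the interferon-stimulated response element (ISRE) of target genes. Type II interferon (interferon gamma) acts through another receptor and JAK2, and its targets carry a different element named GAS. Many of the targets block viral replication, and others sense nucleic acid or feed back on the pathway. In muscle, raised interferon-stimulated genes are well known from inflammatory muscle disease such as dermatomyositis.

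Upstream stretches of genes that rose and of genes that did not pass the test are shown, since both kinds hold the ISRE. RefSeq promoter windows (GRCm38.p6, 250 bases before to 50 after the start of transcription) were found for 35 of the 46 genes. No window was found under the symbols Dhx58, Zbp1, Oas2, Mx1, Mx2, Rtp4, Usp18, Parp9, Parp14, Ifi27 and Ifi204. An ISRE core, searched as GAAA, any 2 bases and GAAA on both strands with overlapping matches allowed, stood in a window of 20 of these 35 genes (57.1%), against 3.99% of all 27025 genes in the promoter table. It stood in 14 of the 21 genes that rose (66.7%) and in 6 of the 14 that did not pass the test (42.9%), a difference that was not tested. A GAS core, searched as TTC, any 3 bases and GAA (the same on both strands), was present for 7 of the 35 genes (20%), against 9.55% of all genes. It stood in 3 of the 21 that rose (14.3%) and in 4 of the 14 others (28.6%). The following 100-base stretches lie upstream of the start, are written 5′ to 3′ on the strand of the gene, and have the ISRE cores in capitals (a core on the opposite strand reads TTTC, any 2 bases and TTTC).
Isg15 (chr4:156200830-156200929, minus strand): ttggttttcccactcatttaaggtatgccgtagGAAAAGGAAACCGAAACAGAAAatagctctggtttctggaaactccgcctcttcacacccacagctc
Oas1a (chr5:120907526-120907625, minus strand): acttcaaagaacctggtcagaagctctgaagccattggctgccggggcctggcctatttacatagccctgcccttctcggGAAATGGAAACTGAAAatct
Bst2 (chr8:71537542-71537641, minus strand): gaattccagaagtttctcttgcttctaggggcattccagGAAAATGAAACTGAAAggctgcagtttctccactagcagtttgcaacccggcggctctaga
Ifit3 (chr19:34583362-34583461, plus strand): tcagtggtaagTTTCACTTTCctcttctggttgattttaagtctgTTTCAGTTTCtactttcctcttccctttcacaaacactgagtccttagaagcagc
Ifit3b (chr19:34607758-34607857, plus strand): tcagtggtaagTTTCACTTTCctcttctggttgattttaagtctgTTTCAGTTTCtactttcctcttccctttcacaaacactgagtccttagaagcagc
Gbp2 (chr3:142620559-142620658, plus strand): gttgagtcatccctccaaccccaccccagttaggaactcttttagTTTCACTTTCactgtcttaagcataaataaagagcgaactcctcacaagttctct
Gbp7 (chr3:142530236-142530335, plus strand): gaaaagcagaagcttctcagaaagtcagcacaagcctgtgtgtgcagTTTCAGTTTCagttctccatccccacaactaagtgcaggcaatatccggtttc
The first 4 belong to genes that rose, and the last 3 to genes that did not pass the test. The stretches of Ifit3 and Ifit3b were the same at all 100 bases (0 mismatches). A match is a string of letters and does not show that a factor bound there.

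The libraries held between 32108684 and 42344238 counts. The level of a gene is given as CPM, the counts of the gene per a fixed number of counts in its library, after scaling by TMM factors, which set the bulk of genes equal between libraries, and the values of each group stand in the order of replicates 1, 2 and 3. Fold changes are mKO over WT from edgeR's quasi-likelihood test over 16650 genes, with Benjamini-Hochberg adjustment over all of them and a threshold of 0.05. In that test 37.0% of all genes were called, 18.2% higher and 18.9% lower. Hnrnpu itself had 209, 210.4 and 205 CPM in mKO libraries, against 233, 235 and 247 CPM in WT libraries, with no overlap between groups, and missed the threshold (log2 -0.20, SE 0.10, edgeR adjusted p = 0.147). With CPM from library totals it averaged 244 ± 7.22 in mKO and 203 ± 5.08 CPM in WT libraries (SD, n = 3 each), the opposite order. The count covers the whole gene and cannot verify a deletion of part of it, so every direction is that between libraries as labelled. Defining genes of skeletal muscle were abundant in all libraries, for example Ckm with 10377, 9177 and 10859 CPM in mKO libraries, against 27402, 26745 and 25102 CPM in WT libraries.

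Against the background of 18.2% of genes called higher, 29 of the 46 interferon-stimulated genes were called higher (63.0%), and 0 were called lower against 18.9%. Their median log2 fold change was 0.78, beside 0.02 for all tested genes, and 42 of the 46 values were positive. At least 2-fold rises numbered 18 of 46, against 8.77% of all genes. The CPM of the groups did not overlap for 34 genes with mKO higher, against 25.3% of all genes, and for 1 gene with mKO lower, against 24% (49.3% of all genes in both directions). All 46 genes passed the filter on low counts, but 6 of them (Dhx58, Zbp1, Oasl1, Oas3, Isg15 and Ifi209) passed only through the mKO libraries, which favours a higher level there. All 6 are part of the 18 genes with at least 2-fold rises and of the 34 genes without overlap. Among the 40 that passed in both groups, 23 rose. The summed level of the 46 genes was 507, 467 and 483 CPM in mKO libraries, against 352, 320.2 and 342 CPM in WT libraries. The mean sums differed by 1.44-fold. All 15 markers of macrophages and other myeloid cells were also called higher, beside 18.2% of all genes. Of these markers, 1 passed the filter on low counts only through the mKO libraries, and the other 14 rose as well. The summed level of the 15 markers was 1057, 649.9 and 792 CPM in mKO libraries, against 365, 322 and 306 CPM in WT libraries. In bulk tissue more cells of a type and more RNA per cell cannot be told apart, and the part of these cells in the result was not tested.

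**Figure D1:**
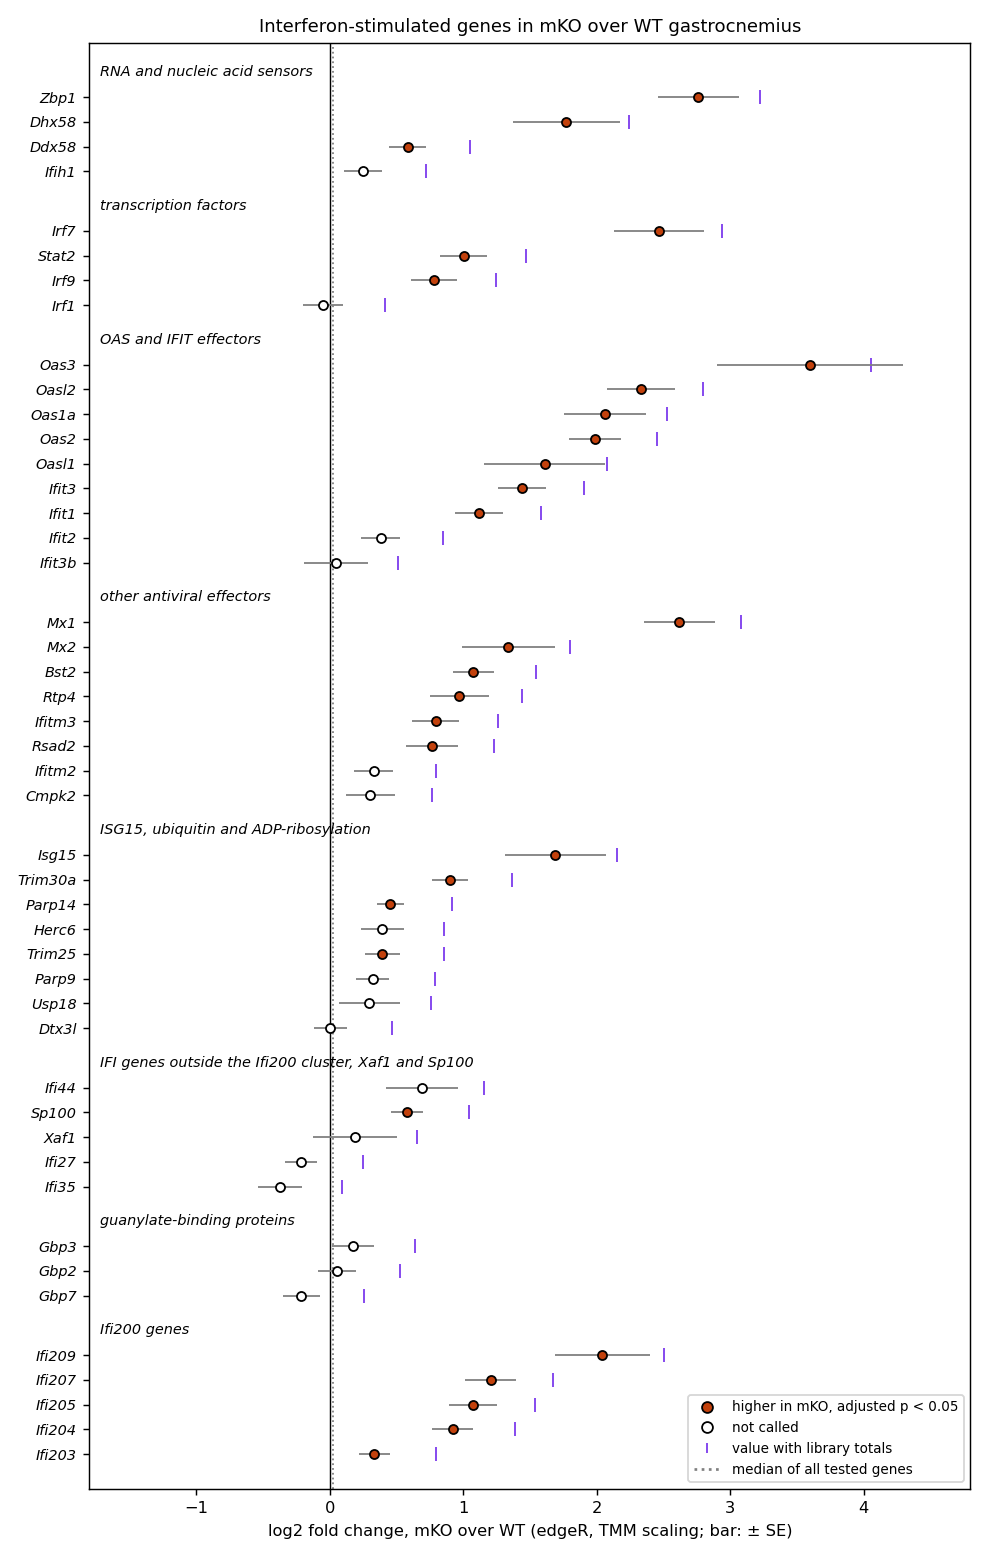
The log2 fold change of each of the 46 genes, mKO over WT, grouped by role, with bars of ± SE, filled circles for genes called at an adjusted p under 0.05, and violet ticks for the value when library totals replace TMM factors. The 29 filled circles all lie to the right of 0, from 0.33 for Ifi203 to 3.59 for Oas3, and the open ones lie between -0.37 and 0.69.

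The scaling sets the zero of these values. When libraries were scaled by their totals, the median of all genes moved up by 0.465 on the log2 scale, 49.0% of all genes were called higher and 6.75% lower, and 41 of the 46 interferon-stimulated genes were. The rises given here are therefore relative to the bulk of genes.

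Among the sensors of nucleic acid, 3 of 4 rose, beside 18.2% of all genes. Zbp1 and Dhx58 passed the filter on low counts only through the mKO libraries, and 1 of the other 2 rose. Zbp1, which encodes a sensor of left-handed nucleic acid that can trigger necroptosis, had 3.17, 3.05 and 2.54 CPM in mKO libraries, against 0.401, 0.582 and 0.308 CPM in WT libraries. The rise was 6.78-fold (log2 2.76, SE 0.30, edgeR adjusted p = 2.25e-05), and every mKO value was above every WT value. Dhx58 encodes LGP2, a regulator of the RIG-I-like receptors, and had 2.203, 1.93 and 1.92 CPM in mKO libraries, against 0.267, 1.04 and 0.448 CPM in WT libraries (log2 1.77, SE 0.40, edgeR adjusted p = 0.00388). The WT libraries of Dhx58 spread widely, and without WT replicate 2 its log2 fold change was 2.46. Ddx58 encodes RIG-I, the sensor of short double-stranded and uncapped RNA, and had 12.3, 13.3 and 11.4 CPM in mKO libraries, against 8.78, 7.48 and 8.36 CPM in WT libraries. Its groups did not overlap either, and the rise was smaller (log2 0.59, SE 0.14, edgeR adjusted p = 0.00494). Ifih1 encodes MDA5, the sensor of long double-stranded RNA, and had 13.3, 11.9 and 11.9 CPM in mKO libraries, against 10.1, 9.04 and 11.9 CPM in WT libraries. Here WT replicate 3 lay within the range of the mKO libraries, and the gene missed the threshold (log2 0.25, SE 0.14, edgeR adjusted p = 0.185).

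Of the transcription factors of the pathway, 3 of 4 rose, beside 18.2% of all genes. Irf7, the factor that amplifies production of type I interferon, had 9.43, 7.01 and 3.97 CPM in mKO libraries, against 1.77, 0.828 and 1.12 CPM in WT libraries. Even the lowest mKO library was above all WT libraries, although mKO replicate 3 was well below the other mKO libraries, and the rise was 5.53-fold (log2 2.47, SE 0.34, edgeR adjusted p = 0.000118). Stat2 and Irf9 encode subunits of the ISRE-binding complex. Stat2 had 10.1, 11.4 and 9.29 CPM in mKO libraries, against 6.38, 4.38 and 4.64 CPM in WT libraries, a 2.01-fold rise (log2 1.00, SE 0.18, edgeR adjusted p = 0.000731). Irf9 had 14.3, 11.7 and 11.1 CPM in mKO libraries, against 8.58, 5.76 and 7.22 CPM in WT libraries (log2 0.78, SE 0.17, edgeR adjusted p = 0.00325), and its groups did not overlap. Irf1, a factor that responds strongly to interferon gamma, had 7.602, 9.295 and 8.23 CPM in mKO libraries, against 7.92, 9.72 and 8.42 CPM in WT libraries. Its groups overlapped, and it missed the threshold (log2 -0.05, SE 0.15, edgeR adjusted p = 0.815). Scaled by library totals, Irf1 was called higher (log2 0.41, adjusted p = 0.0331).

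The 2′-5′ oligoadenylate synthetases, which make the second messenger that activates RNase L, and the IFIT proteins, which bind viral RNA, rose in 7 of 9 cases with a median log2 fold change of 1.61. Oas3 and Oasl1 passed the filter on low counts only through the mKO libraries. Of the other 7 genes 5 rose, beside 18.2% of all genes. Oas2 had 8.75, 6.89 and 6.56 CPM in mKO libraries, against 1.904, 2.05 and 1.65 CPM in WT libraries. The mKO values were 3.96-fold higher and did not overlap with WT (log2 1.99, SE 0.20, edgeR adjusted p = 1.02e-05). Oasl2, a synthetase-like protein gene, had 7.67, 7.57 and 6.37 CPM in mKO libraries, against 1.704, 1.78 and 0.839 CPM in WT libraries (log2 2.33, SE 0.25, edgeR adjusted p = 2.25e-05). Oas1a had 4.25, 2.63 and 4.32 CPM in mKO libraries, against 0.835, 1.26 and 0.587 CPM in WT libraries (log2 2.06, SE 0.31, edgeR adjusted p = 0.000246). Of the 50-base strings in transcripts of Oas1a, 57.6% also occur in its neighbour Oas1g, so that the counting could split reads between these copies; Oas1g, named after its values were seen, rose as well (log2 1.88, SE 0.37, edgeR adjusted p = 0.00169). Oas3, for which counts are given because its fold was the largest, had 97, 34 and 35 counts in mKO libraries, against 8, 1 and 1 counts in WT libraries. Its fitted log2 fold change of 3.59 (SE 0.70, edgeR adjusted p = 0.00148) rested on few reads: it was 5.31 without WT replicate 1 and 2.99 without mKO replicate 1. Oasl1, a repressor of Irf7 translation in mouse, averaged 0.875 ± 0.314 CPM in mKO and 0.287 ± 0.0767 CPM in WT libraries (SD, n = 3 each; log2 1.61, SE 0.45, edgeR adjusted p = 0.0141), and its call was lost without mKO replicate 1 (adjusted p = 0.0583) or mKO replicate 2 (0.0581).

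Of the 4 IFIT genes, which lie together on chromosome 19, Ifit1 and Ifit3 rose. Ifit3 had 11.2, 12.7 and 10.3 CPM in mKO libraries, against 5.11, 4.23 and 3.33 CPM in WT libraries, with no overlap between groups (log2 1.44, SE 0.18, edgeR adjusted p = 6.00e-05). Ifit1, which binds RNA that lacks the methylated cap of host mRNA, averaged 7.34 ± 1.21 CPM in mKO and 3.38 ± 0.293 CPM in WT libraries (SD, n = 3 each; log2 1.12, SE 0.18, edgeR adjusted p = 0.000423). Ifit2, which lies between 34550694 and 34576419 on the same chromosome, averaged 9.82 ± 0.863 CPM in mKO and 7.54 ± 0.658 CPM in WT libraries and narrowly missed the threshold, although its groups did not overlap (log2 0.38, SE 0.15, edgeR adjusted p = 0.0549). Ifit3b, the neighbouring copy of Ifit3 and singled out after its values were seen, had 2.12, 2.96 and 2.97 CPM in mKO libraries, against 3.17, 2.64 and 1.99 CPM in WT libraries. The mKO and WT values of Ifit3b were interleaved (log2 0.05, SE 0.24, edgeR adjusted p = 0.896). The copies share 51.2% of the 50-base strings of Ifit3 and 44.5% of those of Ifit3b, so the level of each is uncertain. Their 100-base upstream stretches printed above are identical. The difference between the changes of Ifit3 and Ifit3b was not tested.

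Of the other antiviral effectors, 6 of 8 rose, beside 18.2% of all genes. Mx1, a gene of the dynamin-like GTPases, had 2.93, 4.31 and 3.64 CPM in mKO libraries, against 0.501, 0.582 and 0.671 CPM in WT libraries. This was a 6.15-fold rise with no overlap (log2 2.62, SE 0.27, edgeR adjusted p = 1.31e-05), and Mx2, its paralog, averaged 1.99 ± 0.3498 CPM in mKO and 0.794 ± 0.359 CPM in WT libraries (SD, n = 3 each; log2 1.34, SE 0.35, edgeR adjusted p = 0.00921). Bst2, which encodes tetherin, the protein that holds budding virus particles at the cell surface, had 16.4, 11.7 and 13.5 CPM in mKO libraries, against 6.78, 6.22 and 6.71 CPM in WT libraries. All 3 mKO values were above those of WT, with mKO replicate 1 the highest (log2 1.08, SE 0.15, edgeR adjusted p = 0.000166). Rtp4, whose product limits RNA virus replication, had 3.77, 3.91 and 3.16 CPM in mKO libraries, against 2.205, 1.59 and 1.73 CPM in WT libraries (log2 0.97, SE 0.22, edgeR adjusted p = 0.0038). Ifitm3 restricts virus entry at endosomal membranes and had 18.5, 12.1 and 14.5 CPM in mKO libraries, against 7.11, 10.1 and 8.84 CPM in WT libraries (log2 0.79, SE 0.18, edgeR adjusted p = 0.00382). Its close relative Ifitm2 was the most abundant of the 46 per exon length, at 36.8 ± 5.52 CPM per kilobase in mKO and 29.3 ± 4.79 CPM per kilobase in WT libraries (SD, n = 3 each), and missed the threshold (log2 0.33, SE 0.15, edgeR adjusted p = 0.1). For Ifitm2, 40.9% of exon bases overlap the gene model Gm45717, where reads can be lost. Rsad2, which encodes viperin, an enzyme that makes a chain-terminating nucleotide, averaged 6.06 ± 0.513 CPM in mKO and 3.56 ± 0.783 CPM in WT libraries (SD, n = 3 each; log2 0.77, SE 0.20, edgeR adjusted p = 0.00804). Cmpk2, the nucleotide kinase gene next to Rsad2 on chromosome 12, averaged 4.43 ± 0.151 CPM in mKO and 3.59 ± 0.557 CPM in WT libraries (SD, n = 3 each); it missed the threshold (log2 0.30, SE 0.19, edgeR adjusted p = 0.222), and its groups did not overlap.

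**Figure D2:**
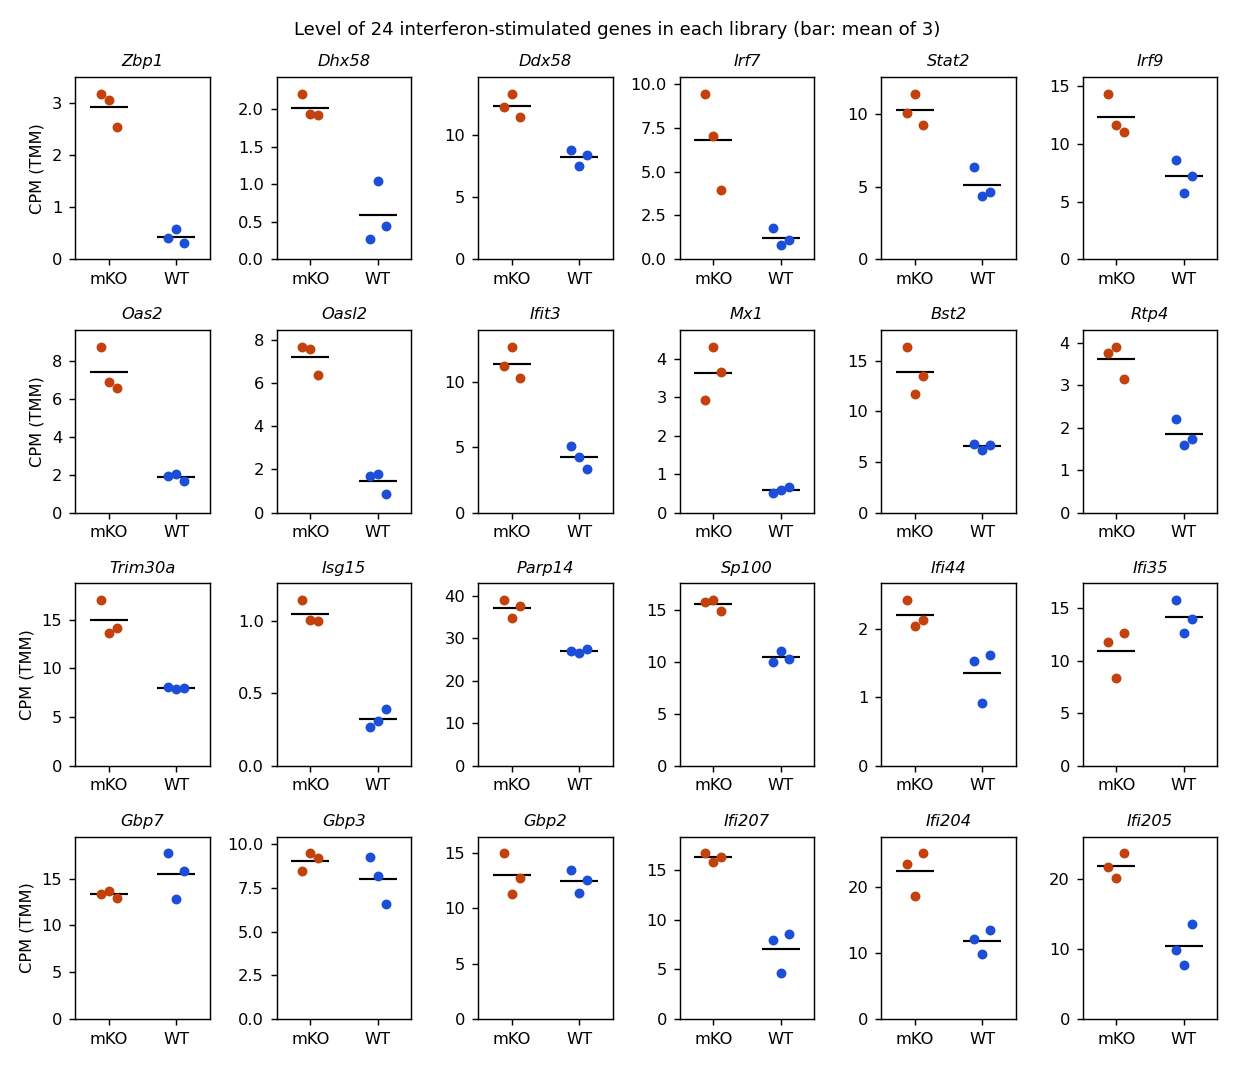
CPM (TMM-scaled, linear axes from 0) of 24 interferon-stimulated genes in each library, the 3 of each role group with the lowest p; points are libraries (mKO left, WT right) and bars the mean of 3. Groups are apart for Zbp1, Irf7, Oas2, Mx1 and the Ifi200 genes, while the points of Gbp2, Gbp3 and Gbp7 overlap and those of Ifi35 are lower in mKO.

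Of 8 genes of Isg15 conjugation and related ubiquitin and ADP-ribosylation, 4 rose and 4 did not pass, beside 18.2% of all genes called higher. Their median log2 fold change was 0.39. Isg15 encodes the ubiquitin-like modifier itself and had 1.15, 1.01 and 0.999 CPM in mKO libraries, against 0.267, 0.307 and 0.392 CPM in WT libraries. It was 3.23-fold higher with no overlap (log2 1.69, SE 0.38, edgeR adjusted p = 0.0036). Isg15 passed the filter on low counts only through the mKO libraries, and 3 of the other 7 genes of this group rose. Usp18, which removes ISG15 from proteins and blocks the type I receptor, averaged 2.55 ± 0.356 CPM in mKO and 2.08 ± 0.333 CPM in WT libraries (SD, n = 3 each). The groups of Usp18 overlapped (log2 0.30, SE 0.23, edgeR adjusted p = 0.337). Trim30a had 17.03, 13.6 and 14.2 CPM in mKO libraries, against 8.12, 7.88 and 8.03 CPM in WT libraries (log2 0.90, SE 0.14, edgeR adjusted p = 0.000264). Trim25, the ubiquitin ligase that activates RIG-I, had 11.5, 11.3 and 12.01 CPM in mKO libraries, against 9.55, 8.58 and 8.39 CPM in WT libraries, and its narrow call (adjusted p = 0.0327) was lost in 5 of the 6 fits that left out a library, where the adjusted p ranged from 0.0568 without mKO replicate 2 to 0.112 without mKO replicate 3.

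Parp14, Dtx3l and Parp9 lie in that order within one stretch of chromosome 16. Parp14, a mono-ADP-ribosyltransferase, had 38.999, 34.7 and 37.6 CPM in mKO libraries, against 27.1, 26.5 and 27.6 CPM in WT libraries. Its rise was small but larger than the spread between libraries (log2 0.45, SE 0.10, edgeR adjusted p = 0.00394). Parp9 averaged 19.6 ± 0.515 CPM in mKO and 15.6 ± 1.71 CPM in WT libraries (SD, n = 3 each; log2 0.32, SE 0.12, edgeR adjusted p = 0.054), with groups that did not overlap. Dtx3l encodes the ubiquitin ligase that forms a complex with PARP9, and averaged 21.7 ± 2.75 CPM in mKO and 21.6 ± 0.564 CPM in WT libraries (SD, n = 3 each). The groups of Dtx3l overlapped (log2 0.00, SE 0.12, edgeR adjusted p = 0.979). Parp9 and Dtx3l overlap by 458 exon bases, so reads there could not be assigned by strand with a kit that does not mark it. Herc6, the main ISG15 ligase of mouse, averaged 6.03 ± 0.0179 CPM in mKO and 4.58 ± 0.359 CPM in WT libraries (SD, n = 3 each) and missed the threshold (log2 0.39, SE 0.16, edgeR adjusted p = 0.0708).

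Among the remaining IFI genes, Xaf1 and Sp100, only Sp100 was called of the 5 in this group. That share is close to the 18.2% of all genes called higher and is not a result about the group. Sp100, a component of PML nuclear bodies, had 15.8, 15.9 and 14.9 CPM in mKO libraries, against 9.95, 11.01 and 10.2 CPM in WT libraries (log2 0.58, SE 0.12, edgeR adjusted p = 0.00258), with no overlap between groups. Ifi44 had 2.42, 2.04 and 2.13 CPM in mKO libraries, against 1.54, 0.9197 and 1.62 CPM in WT libraries. The groups did not overlap, and the gene missed the threshold (log2 0.69, SE 0.27, edgeR adjusted p = 0.0628). Ifi35 had 11.8, 8.37 and 12.7 CPM in mKO libraries, against 15.8, 12.7 and 13.96 CPM in WT libraries. It was the 1 member with all mKO values below all WT values, although mKO replicate 3 and WT replicate 2 were nearly equal, and it missed the threshold (log2 -0.37, SE 0.17, edgeR adjusted p = 0.0979). Ifi27 had 19.3, 19.96 and 18.4 CPM in mKO libraries, against 19.5, 24.5 and 22.97 CPM in WT libraries, also without a call (log2 -0.22, SE 0.12, edgeR adjusted p = 0.18). Scaled by library totals, the values of Ifi35 and Ifi27 turned positive (0.09 and 0.25) and were still not called. Xaf1 averaged 4.38 ± 1.74 CPM in mKO and 3.84 ± 1.48 CPM in WT libraries (SD, n = 3 each), with replicate 1 the lowest in each group and the widest SE of the genes not called (log2 0.19, SE 0.31, edgeR adjusted p = 0.674).

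The 3 guanylate-binding proteins, GTPases that attack the membranes around intracellular microbes and are typical targets of interferon gamma, did not pass. Scaled by library totals, Gbp2 (log2 0.52, adjusted p = 0.00921) and Gbp3 (0.64, 0.00483) were called higher. Gbp2 had 14.96, 11.2 and 12.7 CPM in mKO libraries, against 13.5, 11.4 and 12.6 CPM in WT libraries (log2 0.06, SE 0.14, edgeR adjusted p = 0.78). Gbp3 had 8.46, 9.497 and 9.21 CPM in mKO libraries, against 9.29, 8.22 and 6.602 CPM in WT libraries (log2 0.17, SE 0.16, edgeR adjusted p = 0.419). Gbp7 had 13.4, 13.7 and 12.98 CPM in mKO libraries, against 17.7, 12.8 and 15.8 CPM in WT libraries (log2 -0.21, SE 0.14, edgeR adjusted p = 0.257). In each of them the groups overlapped, and the summed level of the 3 genes was 36.8, 34.4 and 34.9 CPM in mKO libraries, against 40.5, 32.4 and 34.99 CPM in WT libraries. All 3 hold an ISRE core within their promoter windows. A missed threshold does not show that the levels were equal.

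All 5 Ifi200 genes rose, beside 18.2% of all genes. Ifi209 passed the filter on low counts only through the mKO libraries, and the other 4 genes rose as well. The family encodes nuclear and cytosolic DNA-binding proteins with PYRIN and HIN domains, in a cluster on chromosome 1 where these 5 genes lie between 173630917 and 174031810. Ifi207 had 16.7, 15.9 and 16.3 CPM in mKO libraries, against 7.95, 4.66 and 8.59 CPM in WT libraries. The mKO libraries were nearly equal, and all were above WT (log2 1.21, SE 0.19, edgeR adjusted p = 0.000382). Ifi204 had 23.6, 18.7 and 25.2 CPM in mKO libraries, against 12.2, 9.87 and 13.6 CPM in WT libraries (log2 0.92, SE 0.15, edgeR adjusted p = 0.000514), and Ifi205 had 21.7, 20.2 and 23.6 CPM in mKO libraries, against 9.85, 7.63 and 13.6 CPM in WT libraries (log2 1.07, SE 0.18, edgeR adjusted p = 0.000547). Ifi209 was scarce, with 1.48, 1.59 and 2.02 CPM in mKO libraries, against 0.568, 0.276 and 0.392 CPM in WT libraries (log2 2.04, SE 0.36, edgeR adjusted p = 0.000716). Ifi203 averaged 29.3 ± 1.17 CPM in mKO and 23.2 ± 2.59 CPM in WT libraries (SD, n = 3 each; adjusted p = 0.0383), and its call was lost in 5 of the 6 fits that left out a library, with an adjusted p from 0.0616 without mKO replicate 2 to 0.137 without mKO replicate 3. Of the 50-base strings of these genes, between 7.29% (Ifi207) and 33.7% (Ifi209) also occur in another gene, so a part of the reads may be exchanged between copies.

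Compared per kilobase of exon, the order of the members was led in mKO libraries by the small membrane proteins: Ifitm2, then Ifitm3 at 22.2 ± 4.77 CPM per kilobase in mKO and 12.8 ± 2.18 CPM per kilobase in WT libraries, Bst2 at 15.4 ± 2.59 CPM per kilobase in mKO and 7.28 ± 0.337 CPM per kilobase in WT libraries and Ifi27 at 13.1 ± 0.539 CPM per kilobase in mKO and 15.2 ± 1.75 CPM per kilobase in WT libraries (SD, n = 3 each). Ifitm2 was above Ifitm3 beyond their spread in both groups, whereas Bst2 and Ifi27 differed by less than the SD of Bst2 in mKO libraries. Ifit3 stood at rank 5 in mKO libraries and at rank 15 in WT libraries. The lowest in both groups was Oas3, below Oasl1.

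Hardly any counts of the interferons themselves were found. Of 21 interferon genes, 16 had 0 counts in all 6 libraries, Ifnb1 and Ifne among them. A count of 0 allows up to 0.0661 to 0.081 CPM in mKO libraries and 0.0839 to 0.1 CPM in WT libraries (3 counts per library, covering counting error only). Ifnab had 0, 5 and 2 counts in mKO libraries, against 0, 0 and 0 counts in WT libraries. Ifna2 had 2, 1 and 0 counts in mKO libraries, against 0, 0 and 0 counts in WT libraries, and Ifna9 had 0, 1 and 0 counts in mKO libraries, against 0, 0 and 0 counts in WT libraries. Ifnk had 2, 0 and 0 counts in mKO libraries, against 0, 0 and 0 counts in WT libraries, and Ifng had 0, 1 and 3 counts in mKO libraries, against 0, 1 and 0 counts in WT libraries. None of the 21 passed the filter on low counts, so at this depth no difference could be tested, and the type I genes are near-copies that could exchange reads.

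Of the receptors and kinases, 3 of 8 tested genes were higher and 2 lower, beside 18.2% and 18.9% of all genes, and with so few genes these shares are not a result about the group. Of the type I receptor, Ifnar2 had 10.2, 10.8 and 12.3 CPM in mKO libraries, against 7.92, 7.94 and 9.399 CPM in WT libraries (log2 0.40, SE 0.14, edgeR adjusted p = 0.0453), while Ifnar1 averaged 21.4 ± 2.04 CPM in mKO and 17.5 ± 1.24 CPM in WT libraries (SD, n = 3 each) and missed the threshold (log2 0.29, SE 0.12, edgeR adjusted p = 0.0785). Tyk2, the kinase bound to IFNAR1, had 13.1, 13.7 and 11.3 CPM in mKO libraries, against 9.69, 8.3999 and 7.61 CPM in WT libraries (log2 0.57, SE 0.15, edgeR adjusted p = 0.00815). Il10rb, a shared receptor chain of type III interferon and IL-10 family cytokines, rose (log2 0.50, edgeR adjusted p = 0.0201). On the side of interferon gamma, Jak2 had 61.1, 55.8 and 59.9 CPM in mKO libraries, against 132, 114 and 139 CPM in WT libraries. It fell with no overlap between groups (log2 -1.12, SE 0.11, edgeR adjusted p = 1.32e-05). Ifngr2, a chain of the interferon gamma receptor, had 49.8, 46.1 and 57.8 CPM in mKO libraries, against 76.1, 109 and 75.1 CPM in WT libraries and also fell (log2 -0.76, SE 0.15, edgeR adjusted p = 0.00182). Ifngr1 averaged 45.04 ± 5.81 CPM in mKO and 40.2 ± 1.76 CPM in WT libraries (SD, n = 3 each; log2 0.16, SE 0.12, edgeR adjusted p = 0.292), and Jak1, the kinase shared by these receptors, had a log2 fold change of -0.30 (adjusted p = 0.0608). Ifnlr1, the specific chain of the type III receptor, had 4, 0 and 4 counts in mKO libraries, against 1, 1 and 1 counts in WT libraries and was not tested.

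**Figure D3:**
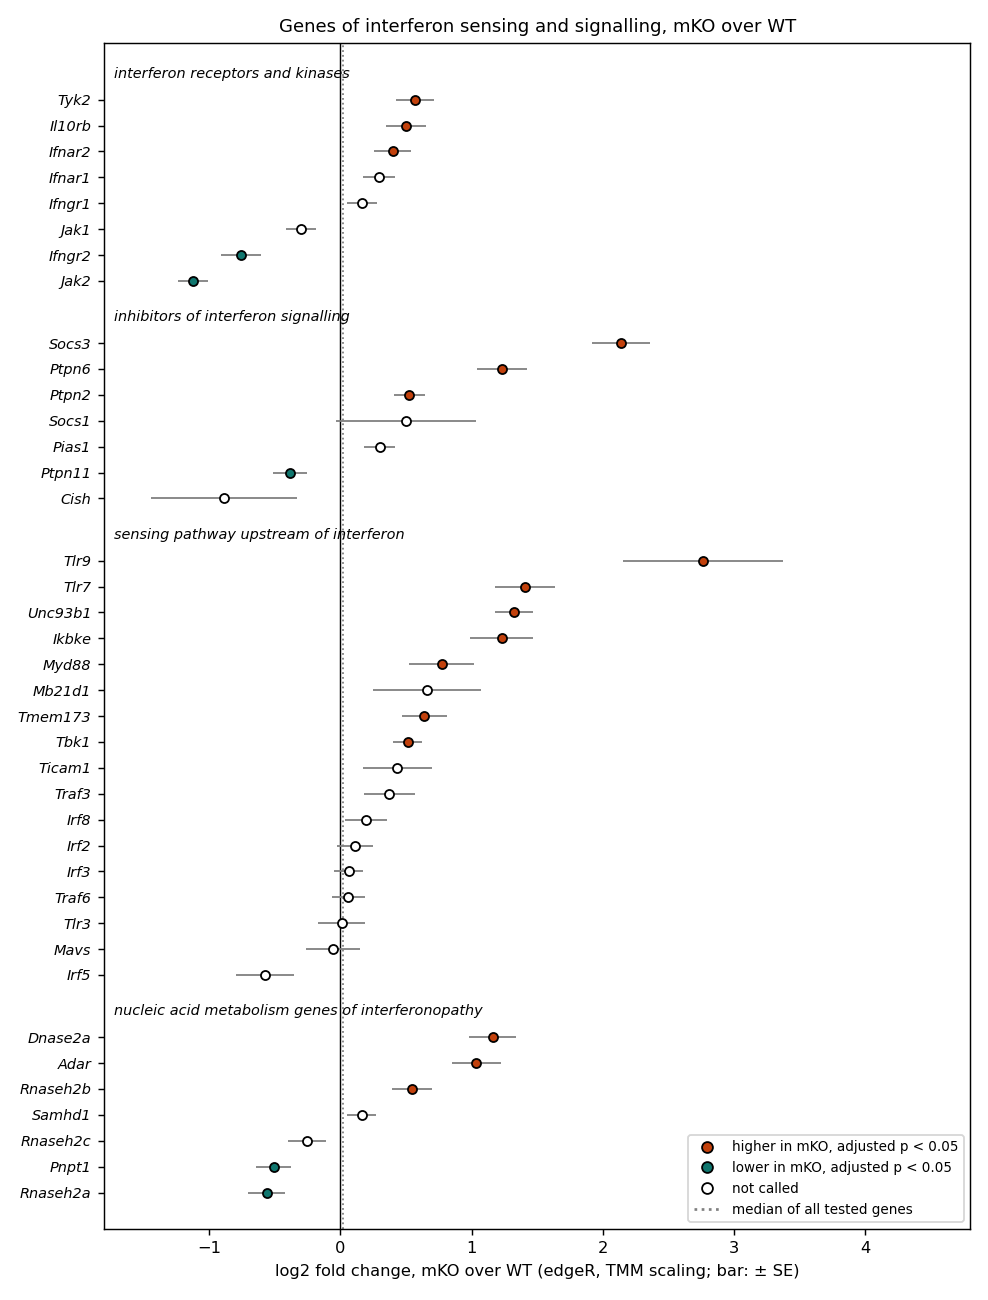
The log2 fold change, mKO over WT, of tested genes of interferon reception, inhibition, sensing and nucleic acid metabolism, with bars of ± SE and filled circles for calls at an adjusted p under 0.05. Socs3, Tlr9, Tlr7 and Unc93b1 lie to the right, Jak2 and Ifngr2 to the left, and Irf3 and Mavs next to 0.

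Of 7 inhibitors of cytokine signalling, 3 rose and 1 fell (18.2% and 18.9% of all genes). Socs3, which is induced mainly by STAT3 and blocks gp130 receptors and JAK kinases, had 11.6, 10.8 and 15.95 CPM in mKO libraries, against 3.84, 2.299 and 2.57 CPM in WT libraries. This was a 4.403-fold rise (log2 2.14, SE 0.22, edgeR adjusted p = 1.37e-05), whereas Socs1, an inhibitor of interferon receptors named after its values were seen, was scarce at 0.336 ± 0.101 CPM in mKO and 0.236 ± 0.107 CPM in WT libraries (SD, n = 3 each; log2 0.50, SE 0.54, edgeR adjusted p = 0.501). The phosphatase gene Ptpn6, strongly expressed in blood cells, averaged 7.997 ± 1.08 CPM in mKO and 3.401 ± 0.671 CPM in WT libraries (SD, n = 3 each; log2 1.23, SE 0.19, edgeR adjusted p = 0.000308), and Ptpn2, a phosphatase of JAK1, rose (log2 0.53, edgeR adjusted p = 0.00359). Ptpn11 fell (log2 -0.38, edgeR adjusted p = 0.0311).

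In the sensing pathway upstream of interferon, 7 of 17 genes rose and none fell, beside 18.2% and 18.9% of all genes, with a median log2 fold change of 0.43. Unc93b1, the chaperone of endosomal Toll-like receptors, had 23.9, 18.03 and 19.1 CPM in mKO libraries, against 8.99, 7.94 and 7.52 CPM in WT libraries (log2 1.32, SE 0.15, edgeR adjusted p = 2.43e-05). Tlr7, the receptor for single-stranded RNA, had 10.4, 6.47 and 7.02 CPM in mKO libraries, against 3.41, 2.27 and 3.33 CPM in WT libraries (log2 1.41, SE 0.23, edgeR adjusted p = 0.000413). Tlr9, the receptor for unmethylated DNA, was scarce with 36, 39 and 26 counts in mKO libraries, against 8, 1 and 2 counts in WT libraries (log2 2.76, SE 0.61, edgeR adjusted p = 0.00337). It passed the filter on low counts only through the mKO libraries, and 6 of the other 16 genes rose. The kinase genes Ikbke and Tbk1, which activate IRF3 and IRF7, rose with log2 fold changes of 1.23 and 0.51 (edgeR adjusted p = 0.00149 and 0.00296). The factor Irf3 (log2 0.07, adjusted p = 0.679), the adaptor Mavs (-0.06, 0.852) and Tlr3 (0.01, 0.97), all 3 named after their values were seen, did not pass. Among 7 tested genes whose human counterparts are linked to interferonopathies or that degrade or edit nucleic acid, 3 rose and 2 fell (18.2% and 18.9% of all genes). Adar, which edits double-stranded RNA, averaged 7.29 ± 0.709 CPM in mKO and 3.56 ± 0.724 CPM in WT libraries (SD, n = 3 each; log2 1.04, SE 0.19, edgeR adjusted p = 0.000905), and Dnase2a, the lysosomal DNase gene, averaged 14.3 ± 2.67 CPM in mKO and 6.3997 ± 1.01 CPM in WT libraries (SD, n = 3 each; log2 1.16, SE 0.18, edgeR adjusted p = 0.000264). Of the RNase H2 subunits, Rnaseh2b rose (log2 0.55, edgeR adjusted p = 0.0125) and Rnaseh2a fell (log2 -0.56, 0.00807). Pnpt1, the mitochondrial RNA exonuclease gene, fell (log2 -0.51, 0.00941). Trex1, a DNase gene named after its values were seen, was listed at 0 in all libraries. Exon overlap with other genes was not checked for Trex1, so the 0 does not show that its RNA was absent.

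A wider list of 74 matched interferon-induced genes outside the 46 gave 35 higher and 5 lower of 66 tested, beside 18.2% and 18.9% of all genes, with a median log2 fold change of 0.67. Of the 66 genes, 11 passed the filter only through the mKO libraries, Slfn1 and Oas1g among them, and 27 of the other 55 rose. The lowest p-values belonged to Slfn1, Slfn2 and Slfn8 of the Schlafen family, Ifi27l2a and Lgals3bp. Slfn1 had 1.45, 2.09 and 1.67 CPM in mKO libraries, against 0.1002, 0.09197 and 0.1399 CPM in WT libraries (log2 3.92, SE 0.41, edgeR adjusted p = 1.65e-05), Ifi27l2a had 59.8, 38.5 and 51.3 CPM in mKO libraries, against 18.8, 22.3 and 24.3 CPM in WT libraries (log2 1.19, SE 0.16, edgeR adjusted p = 9.82e-05), and Lgals3bp averaged 9.999 ± 1.73 CPM in mKO and 3.47 ± 0.913 CPM in WT libraries (SD, n = 3 each; log2 1.53, SE 0.21, edgeR adjusted p = 0.00013). GTPases typical of interferon gamma, named after their values were seen, moved in both directions. Gbp6 had 4.05, 4.603 and 3.64 CPM in mKO libraries, against 9.05, 7.54 and 10.99 CPM in WT libraries, a fall with no overlap (log2 -1.16, SE 0.18, edgeR adjusted p = 0.000312). Gbp9 (log2 -0.44) and the T-cell-specific GTPase gene Tgtp1 (log2 -0.91) fell as well, Gbp4, Gbp5, Gbp10, Igtp, Iigp1 and Tgtp2 did not pass, and Irgm2 (log2 1.40), Irgm1 (0.31) and Ifi47 (1.01) rose. These genes belong to multigene families with similar sequences, so their counts are uncertain.

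The macrophage and myeloid markers had a median log2 fold change of 1.53. Cd68, a lysosomal protein gene of macrophages, had 12.3, 9.79 and 10.2 CPM in mKO libraries, against 1.94, 1.56 and 1.73 CPM in WT libraries. The mKO library with the highest marker sum, replicate 1, was also the highest of the mKO libraries for 14 of the 29 genes that rose, whereas replicate 2 was highest for 8 and replicate 3 for 7. Among WT libraries, whose marker sum was also highest in replicate 1, these numbers were 14, 8 and 7 as well. How often each replicate was the highest among all tested genes was not counted, so these numbers do not tie the genes to the markers. Without mKO replicate 1, 26 of the 46 genes were called higher, against 14.5% of all genes. Endothelial markers fell in 9 of 10 cases, with sums of 226, 221 and 208 CPM in mKO libraries, against 361, 429 and 334 CPM in WT libraries. Skeletal fibre markers fell in 7 of 10 cases, and 18.9% of all genes were called lower. Fibroblast markers rose in 2 of 9 cases, a share close to the 18.2% of all genes, with sums between 2504 and 2669 CPM in mKO libraries and between 1896 and 2105 CPM in WT libraries.

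Markers of lymphocytes, plasmacytoid cells and neutrophils were scarce. The 11 T and NK cell markers summed to 2.6000, 2.07 and 2.38 CPM in mKO libraries, against 1.503, 0.9197 and 0.867 CPM in WT libraries; 2 were tested, Cd4, which passed the filter only through the mKO libraries, rose (log2 1.74), and Cd3d had 1 count in 1 library of each group. The 6 markers of B cells and plasmacytoid dendritic cells, the main producers of type I interferon in blood, summed to 1.41, 1.77 and 0.729 CPM in mKO libraries, against 2.24, 2.94 and 2.74 CPM in WT libraries, and Siglech fell (log2 -1.33, SE 0.30, edgeR adjusted p = 0.00402). Neutrophil markers summed to 1.34, 0.606 and 1.296 CPM in mKO libraries, against 1.202, 0.399 and 0.839 CPM in WT libraries, with Ly6g and Ngp at 0 counts in all libraries and neither of the 2 tested markers called. The part of any of these cell types in the rise of interferon-stimulated genes was not tested.

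**Figure D4:**
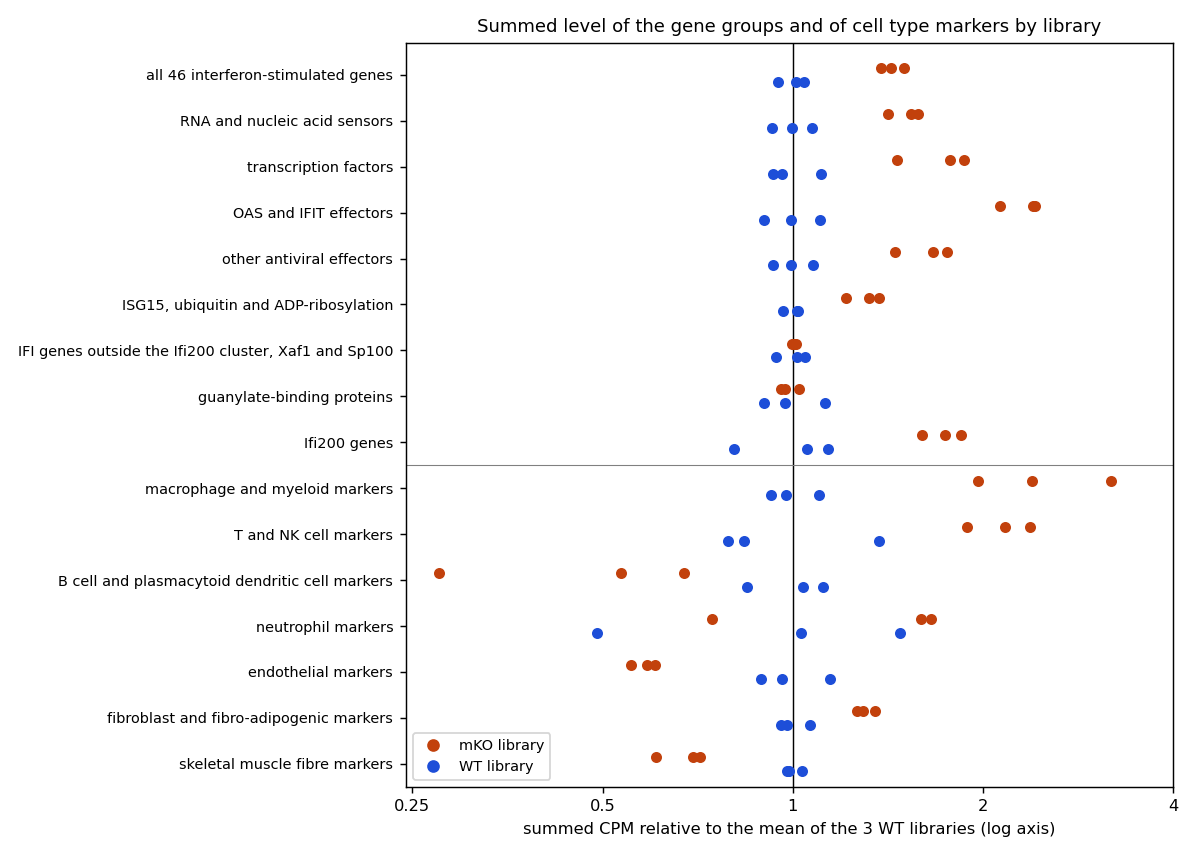
Summed CPM of each role group of interferon-stimulated genes (above the line) and of each marker list (below it) in every library, relative to the mean of the 3 WT libraries on a log axis. The sums of OAS and IFIT effectors and of Ifi200 genes are apart between mKO and WT libraries, those of the guanylate-binding proteins overlap, and the macrophage marker sum is highest in mKO replicate 1, at 1057 CPM.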

How the data were processed

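Total RNA from gastrocnemius of 3 mKO and 3 WT libraries was sequenced from NEBNext Ultra libraries, per the labels' protocols. The authors deposited raw read counts per Ensembl gene for each library. The submitters' processing notes name Trimmomatic 0.36, STAR 2.5.2b, featureCounts of Subread 1.5.2 and GRCm38; the strand setting is not given in the sources used here. Library totals ran from 32108684 to 42344238 counts, and fits had a common biological coefficient of variation of 16.1%.

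Genes were filtered with filterByExpr (minimum count 10) and tested with edgeR 4.0.16 in R 4.3.3: TMM factors, quasi-likelihood F-test with genotype as the only term, Benjamini-Hochberg adjustment over all 16650 genes. SE was taken as the size of the log2 fold change divided by the square root of F. On simulated counts (16650 genes), 62% of 100 genes given a 2-fold change and 18% of 100 given a 1.5-fold change were recovered. There were 4 false calls. Only these genes were changed, whereas 37.0% of all genes were called in the data. The adjustment is stricter where few genes change, so these shares cannot be carried over to the data. Alternatives were other scaling factors, DESeq2 1.42.0, voom in limma 3.58.1, other filters, robust dispersion, a replicate block and leaving out each library. Coordinates are those of the count tables (GRCm38); promoters are RefSeq GRCm38.p6, and 50-base strings were compared over GENCODE transcripts of the same build.

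The 46 genes and all lists were chosen with earlier results of these data known. Values in every library were given for Hnrnpu and for up to 4 genes of each role with the lowest p or a sign opposite to most of their role, up to 5 genes of each pathway list were named by lowest p, and interferon genes with any count and the receptors were named; other genes are marked as named after their values were seen. A further gene of the pathway is not reported here.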

Additional observations from a re-analysis of the deposited data

How the results depend on the processing

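Leaving out each library in turn gave 26 to 30 interferon-stimulated genes higher and 0 lower, with a median log2 fold change of 0.64 to 0.81. In these fits 4766 to 6255 of all genes were called, 13.7% to 17.7% higher and 14.1% to 18.4% lower. Of the 29 genes, 26 were called in all 6 of these fits. Library totals in place of TMM factors gave a median of 1.24 and 9275 genes called, and turned genes that had not passed: Irf1 to 0.41 (adjusted p = 0.0331), Ifi27 to 0.25, Ifi35 to 0.094 and Gbp7 to 0.25. With library totals 11 further genes that had not passed, Gbp2 and Gbp3 among them, were called higher without a change of sign. That fit called 49.0% of all genes higher. Upper-quartile factors gave 33 genes higher, adding Ifit2, Herc6, Parp9 and Ifi44, with Irf1 at 0.012. A mean count of at least 50 left 42 genes tested and also gave 29, beside 20.9% of all genes called higher. Of these 29, 25 were called before and 4 were Ifit2 (adjusted p = 0.0318), Herc6 (0.0457), Parp9 (0.0281) and Ifi44 (0.0456). Oas3, Oasl1, Isg15 and Ifi209 were not tested. DESeq2, its size factors, voom and robust dispersion each gave 29 higher, where 17.7% to 18.4% of all genes were called higher. With voom Dtx3l was -0.0045. Without a low-count filter 27 were higher, beside 11.4% of all genes, and Trim25 (adjusted p = 0.0664) and Ifi203 (0.0516) were lost. Genes that had not passed also changed sign when 1 library was left out: Xaf1 ran from -0.18 to 0.46, Irf1 from -0.13 to 0.031, Dtx3l from -0.061 to 0.11, Gbp2 from -0.057 to 0.16 and Ifit3b from -0.12 to 0.21. The cause was not tested. The interferon genes were too scarce to be tested.

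Whether the replicate numbers pair the libraries was not stated. Deviations of same-numbered libraries correlated at 0.018, -0.002 and 0.022, which shows no strong shared effect but cannot exclude a pairing. With the replicate number as a block, 27 genes were higher, 0 lower, with a median of 0.78. That fit called 5519 of all genes, 16.3% higher and 16.9% lower. Trim25 (adjusted p = 0.0555) and Ifi203 (0.0508) were lost, and Dtx3l was -0.0021.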
